A study of Homo sapiens with 8 samples.

Results

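The 8 genes described here encode enzymes that make, carry or use one-carbon units on folate, together with the thymidylate-making enzymes of dividing cells (TYMS, TK1, MTHFD1, MTHFD1L, MTHFD2L, SHMT1, ALDH1L2 and MTR). They were taken by name, and their values played no part in the rule. They are 8 of the 34290 genes with at least 1 count, and all 8 passed the filter on low counts that left 19280 genes in the test. The cells were HEK293T/17, which descend from human embryonic kidney, express SV40 large T antigen and take up plasmids readily. The first group holds 4 libraries of cells that received a construct with a tagged human KCNQ3 open reading frame, which encodes a voltage-gated potassium channel subunit, and were harvested 48 hours later. The other group holds 4 libraries of normal HEK293T cells, labelled control. Since one transfection protocol is attached to all 8 libraries, it is not known from the labels whether control cells met the reagent or an empty construct. The construct was introduced transiently into 1 cell line, and a bulk library averages cells that took it up with cells that did not. Fewer cells expressing a gene and less RNA per cell cannot be told apart in such libraries.

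Folate carries one-carbon units between serine, glycine and formate on one side and the building of thymidylate, purines and methionine on the other. The chain runs in parallel in mitochondria, where serine is broken down to formate, and in the cytosol, where the formate is recharged onto folate and spent. TYMS spends one such unit to methylate dUMP. TK1 makes the same thymidylate without folate, by phosphorylating salvaged thymidine. Dividing cells depend on this supply for DNA synthesis, and the genes of the thymidylate branch are textbook examples of transcripts that peak around S phase.

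The 8 libraries held between 24020097 and 30734915 counts, of which 98.7% to 98.9% lay on transcripts that could be assigned to a gene. KCNQ3, the gene introduced, had 15283, 15874, 19709 and 18603 counts in the overexpression libraries, against 4, 5, 0 and 2 counts in the control libraries. The groups were far apart (exact two-sided permutation test, p = 0.0286, the smallest that the 70 assignments of 4 against 4 allow). All 8 genes listed as expressed in HEK293T were over 1 TPM in every library, with summed levels of 715 to 831 TPM in overexpression and 745 to 953 TPM in control libraries. Of 16 markers of blood, endothelium, fibroblasts, liver and mature kidney tubule, 15 stayed under 1 TPM in every library and 9 had no count at all. COL1A1, a fibroblast collagen, was the exception with at most 6.62 TPM. The summed level of these 16 markers was 3.58 to 5.73 TPM in overexpression and 5.38 to 7.22 TPM in control libraries, and its part in the results below was not tested.

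None of the 8 genes passed the gene test (quasi-likelihood F-test in edgeR, p-values adjusted by Benjamini-Hochberg over all tested genes, threshold 0.05), in which 0.301% of all tested genes were called. At an unadjusted p under 0.05 there were 3 of the 8, TYMS and MTHFD2L higher and MTHFD1L lower, where 19.4% of all tested genes reached that level. In CPM, every overexpression library of TYMS and SHMT1 lay above every control library, an order that 5.84% of tested genes showed. Every overexpression library of MTHFD1L and ALDH1L2 lay below every control library, an order that 5.77% of tested genes showed. In TPM the groups overlapped for each of these 4 genes. The median log2 fold change of the 8 genes, overexpression over control, was 0.0012, beside 0.0090 over all tested genes. DESeq2's Wald test called 4.86% of the genes it gave an adjusted p, and it called 2 of the 8. These were TYMS (log2 fold change 0.18, adjusted p = 0.0181) and MTHFD1L (log2 fold change -0.23, adjusted p = 0.0339). The design names the libraries biological replicates without saying how the cultures or transfections were separated. The p-values therefore set the difference between groups against the spread between these libraries only.

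**Figure D1:**
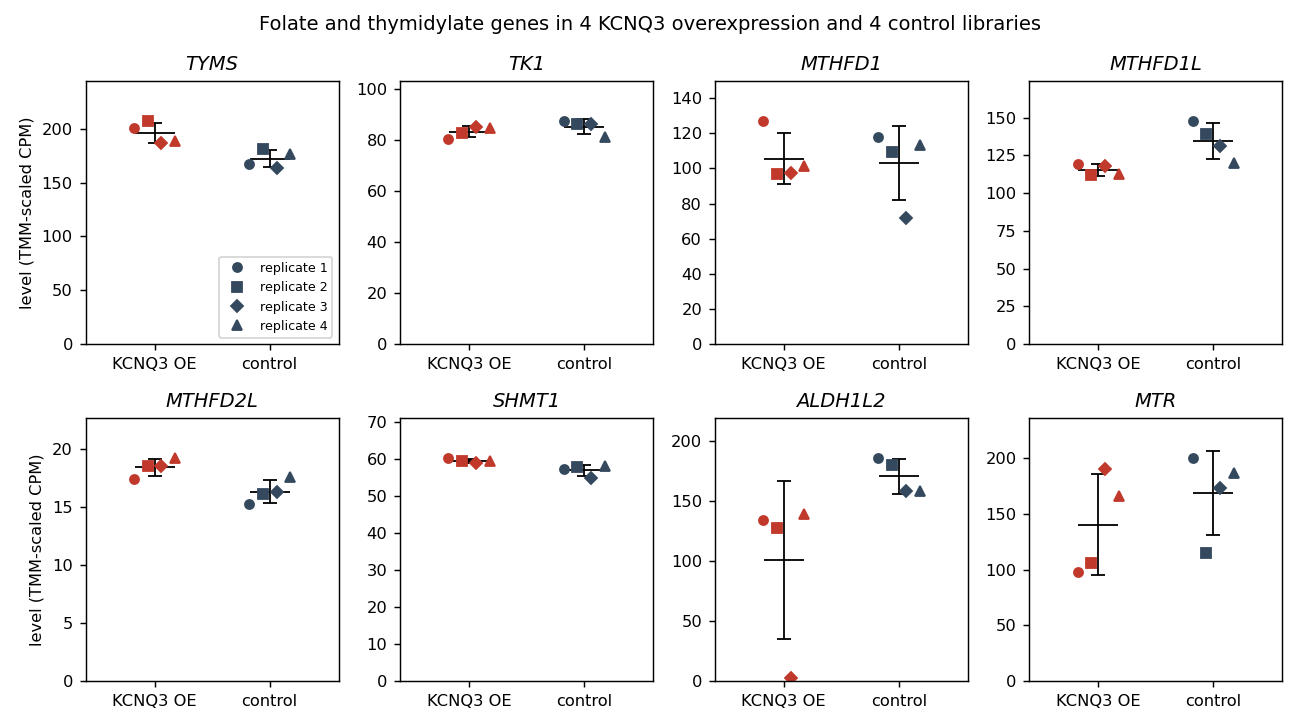
Level of each of the 8 genes in every library, in TMM-scaled CPM, with the 4 KCNQ3 overexpression libraries (red) left of the 4 control libraries (dark blue). Marker shapes give the replicate, long dashes the mean and bars the SD (n = 4 each). In CPM the groups do not overlap for TYMS and SHMT1, with overexpression higher, as in 5.84% of tested genes. Nor do they for MTHFD1L, by a narrow gap, and ALDH1L2, with overexpression lower, as in 5.77%. In TPM the groups of all these genes overlap. A single ALDH1L2 library sits at 2.46 CPM.

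TYMS, thymidylate synthase, was the most abundant of the 8 in TPM. It had 201, 207, 187 and 189 CPM (counts scaled to library size by TMM) in the overexpression libraries, against 168, 181, 164 and 176 CPM in the control libraries. The lowest overexpression library thus stood above the highest control library. The means were 196 ± 9.63 CPM in overexpression and 172 ± 8.07 CPM in control libraries (SD, n = 4 each). The difference on the log2 scale, overexpression over control, was 0.19 with an SE of 0.05 and a 95% interval of 0.08 to 0.29 (edgeR, adjusted p = 0.0983). In TPM, which divides by transcript length, the groups met, at 183 to 221 TPM in overexpression and 180 to 187 TPM in control libraries. The log2 fold change on the log2(TPM + 0.1) scale was 0.11 (limma, adjusted p = 0.502).

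The TYMS gene lies on the plus strand at chr18:657604-673578 (GRCh38, GENCODE release 29) and shares both ends with other genes. TYMSOS, an RNA read from the opposite strand, overlaps its first 737 bases, and ENOSF1, a mitochondrial enolase-superfamily gene, overlaps its last 3255 bases from the opposite strand. TYMSOS had 5.63 ± 0.61 CPM in overexpression and 4.65 ± 0.48 CPM in control libraries (SD, n = 4 each), with groups that overlapped in TPM but not in CPM. Its log2 fold change was 0.28 with an adjusted p of 0.198 by edgeR. ENOSF1 had a log2 fold change of -0.12 (edgeR, adjusted p = 0.590), with 52.2 to 64.0 CPM in overexpression and 54.0 to 73.3 CPM in control libraries. The sources used here do not say whether counting used the strand, so reads from the shared ends cannot be assigned to one gene with certainty.

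TK1, the thymidine kinase of the salvage route, had nearly the same mean in both groups. It had 80.4, 82.6, 85.1 and 84.5 CPM in the overexpression libraries, against 87.2, 86.2, 86.0 and 80.9 CPM in the control libraries. The groups lay on top of each other, and the 95% interval of the log2 fold change ran from -0.12 to 0.05 around -0.03 (edgeR, adjusted p = 0.700). AFMID, whose start lies 84 bases from that of TK1 on the other strand, had a log2 fold change of 0.15 with an adjusted p of 0.247 by edgeR. Within each library, the TPM of TYMS divided by that of TK1 was 1.94 to 2.23 in overexpression and 1.76 to 2.07 in control libraries.

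The windows before the start sites are printed to set the thymidylate promoters beside that of the methionine enzyme MTR, whose window shares a motif with TYMS. RefSeq's table of promoter windows on GRCh38.p14 holds 13 windows of 300 bases for 7 of the 8 genes; ALDH1L2 has no entry. Each was searched on both strands for E2F sites in the forms TTTCGCGC, TTTGGCGC and TTTCCCGC, for the CCAAT box, for the GC box GGGCGG and for TGATGNAAN, the core of the amino acid response element that ATF4 binds. The searched letters do not contain one another. Capitals mark every motif found other than GC boxes; the lines read 5′ to 3′ on the strand of the gene and end 1 base before the annotated start. The TYMS stretch is chr18:657553-657652 on the plus strand, TK1 is chr17:78187053-78187182 on the minus strand, and MTR is chr1:236795121-236795280 on the plus strand.
TYMS: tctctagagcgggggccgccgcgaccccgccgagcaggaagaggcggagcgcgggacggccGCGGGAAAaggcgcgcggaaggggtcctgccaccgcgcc
TK1: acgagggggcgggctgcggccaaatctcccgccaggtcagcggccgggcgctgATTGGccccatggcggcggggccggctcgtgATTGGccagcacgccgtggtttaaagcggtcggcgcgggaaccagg
MTR: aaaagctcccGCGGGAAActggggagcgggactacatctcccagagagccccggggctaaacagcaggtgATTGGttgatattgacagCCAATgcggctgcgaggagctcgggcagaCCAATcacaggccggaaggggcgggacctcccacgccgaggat

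The TYMS and MTR stretches both hold the E2F form TTTCCCGC on the minus strand, printed here on the plus strand as GCGGGAAA. Of all 35116 windows, 1.63% contain this form on either strand, and 2.74% contain any of the 3 E2F forms searched. In TYMS it lies 39 to 32 bases before the start, and in MTR 150 to 143 bases before the start. The TK1 window around this start holds none of the 3 E2F forms and has 2 CCAAT boxes, both in the orientation ATTGG. The search took exact letters only. Near its end the TK1 stretch reads gcgggaac, which differs from GCGGGAAA in the last letter and was not counted. Of all windows, 34.61% hold a CCAAT box and 44.95% a GC box. TYMS had a log2 fold change of 0.19 (edgeR, adjusted p = 0.0983) and MTR one of -0.27 (edgeR, adjusted p = 0.672). The 95% interval of MTR, -0.95 to 0.42, spans 0, so its direction is not settled. Whether the E2F letters bear on either gene was not tested. A match of letters shows neither binding nor control.

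**Figure D2:**
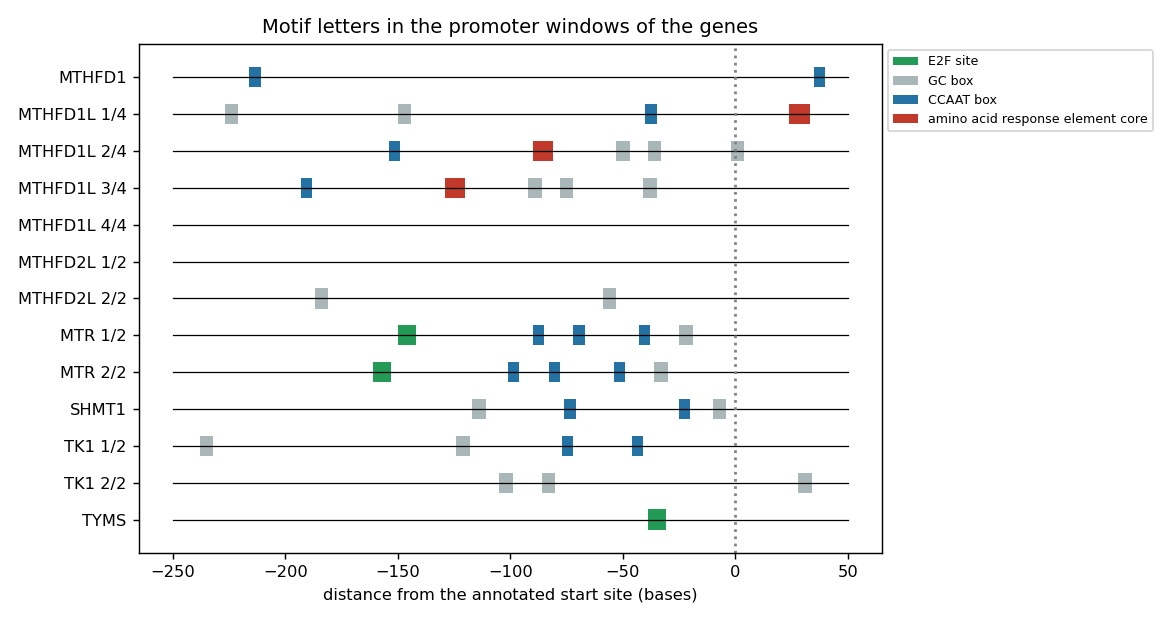
Positions of the searched motif letters in the 13 promoter windows of 7 genes, drawn from 250 bases before to 50 bases after each annotated start site (dotted line). Green marks an E2F form, blue a CCAAT box, grey a GC box and red the amino acid response element core. E2F letters appear in the TYMS window and both MTR windows, and the red element in 3 overlapping windows of MTHFD1L.

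MTHFD1L, the mitochondrial enzyme that releases formate from 10-formyl-tetrahydrofolate, had a lower mean with KCNQ3. It had 119, 112, 118 and 113 CPM in the overexpression libraries, against 148, 139, 131 and 120 CPM in the control libraries. The groups were separated by less than 1 CPM, between overexpression replicate 1 at 119.37 CPM and control replicate 4 at 119.99 CPM. The means were 116 ± 3.85 CPM in overexpression and 134 ± 11.8 CPM in control libraries (SD, n = 4 each). On the log2 scale overexpression over control came to -0.22 with an SE of 0.06 and a 95% interval of -0.35 to -0.09 (edgeR, adjusted p = 0.106). In TPM the groups overlapped, at 54.5 to 65.8 TPM in overexpression and 61.5 to 79.4 TPM in control libraries. Without control replicate 4, the log2 fold change was -0.27 and the gene passed the test (edgeR, adjusted p = 0.0491), in a fit that called 0.994% of the tested genes.

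MTHFD1L lies at chr6:150865549-151101887 on the plus strand (GRCh38). A processed pseudogene on the same strand, AL133260.1, lies inside it near the 3′ end and had counts of its own, 121 ± 13.5 CPM in overexpression and 121 ± 7.47 CPM in control libraries. In the RefSeq table, 3 overlapping windows at the 5′ end of MTHFD1L hold a CCAAT box and the amino acid response element core, which 3.61% of all windows contain. The stretches show both motifs relative to the most upstream of these starts, in capitals and on the plus strand. The CCAAT box lies in the 60 bases before that start, chr6:150866273-150866332, and the response element core lies 25 to 33 bases after it, inside the 30 bases of chr6:150866346-150866375.
MTHFD1L before start: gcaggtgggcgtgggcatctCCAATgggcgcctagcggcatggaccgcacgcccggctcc
MTHFD1L after start: gccgccggctcTGATGCAATcgcgccgggc
Among the windows of the other 6 genes in the table, none holds the letters of that element. ATF4, the stress-response factor that binds it, had 734 ± 17.9 CPM in overexpression and 816 ± 23.6 CPM in control libraries (SD, n = 4 each). Its groups did not overlap in CPM, and its log2 fold change was -0.15 (edgeR, adjusted p = 0.104). In TPM the groups of ATF4 overlapped and the direction turned, with means of 718 TPM in overexpression and 710 TPM in control libraries. Whether ATF4 or this element bears on the MTHFD1L level was not tested.

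MTHFD2L, a mitochondrial dehydrogenase and cyclohydrolase that is the close relative of MTHFD2, was the least abundant of the 8 in TPM. It had 17.4, 18.5, 18.5 and 19.2 CPM in the overexpression libraries, against 15.2, 16.1, 16.3 and 17.6 CPM in the control libraries. The groups overlapped only between overexpression replicate 1 and control replicate 4. The log2 fold change was 0.18 with an SE of 0.06 and a 95% interval of 0.04 to 0.31 (edgeR, adjusted p = 0.155). MTHFD2, the form typical of proliferating cells, had a difference of the opposite sign, with 438 ± 25.6 CPM in overexpression and 535 ± 22.8 CPM in control libraries (SD, n = 4 each). Its log2 fold change was -0.29 with an SE of 0.05, its groups did not overlap, and its adjusted p was 0.0564 by edgeR. Within libraries, MTHFD2 had 10.3 to 14.2 times the TPM of MTHFD2L in overexpression and 15.4 to 21.2 times in control libraries. This ratio was thus lower in every overexpression library. It joins genes whose differences of opposite sign had been seen, and it carries no test. Most MTHFD2L counts sat on ENST00000461101, annotated as a processed transcript with no coding sequence, with 53.8 ± 4.24% in overexpression and 54.1 ± 0.88% in control libraries.

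ALDH1L2, the mitochondrial enzyme that oxidises 10-formyl-tetrahydrofolate to CO2 and makes NADPH, varied most between libraries. It had 134, 128, 2.46 and 140 CPM in the overexpression libraries, against 186, 180, 158 and 158 CPM in the control libraries. Overexpression replicate 3 held 66 counts of the gene, where the other 7 libraries held between 3083 and 5738. The other 3 overexpression values in CPM also lay below every control value. In TPM they did not, with 30.8, 26.8, 3.85 and 41.1 TPM in the overexpression libraries, against 43.5, 40.5, 34.9 and 33.4 TPM in the control libraries. With all libraries the log2 fold change was -0.76 with an SE of 0.91 and a 95% interval of -2.98 to 1.46 (edgeR, adjusted p = 0.714). Without overexpression replicate 3 it was -0.35 (edgeR, adjusted p = 0.0970). C12orf45, which overlaps the locus on the opposite strand, had a log2 fold change of 0.09 (edgeR, adjusted p = 0.429).

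The library that nearly lacked ALDH1L2 counts also held counts on identifiers that the annotation used here does not contain. ENST00000652515 had 3787 counts there and at most 6 in any other library, and ENST00000666607 had 1028 counts there and 0 in every other library. These were the only 2 of the 6339 unmatched identifiers with counts that had over 1000 counts in that library and under 50 in each of the others. The search was made in that library alone, chosen for its low ALDH1L2. How many identifiers are as particular to another library was not counted. In that library ENST00000652515 had 27.0 TPM and ENST00000666607 had 51.7 TPM, where ALDH1L2 had 3.85 TPM. The other overexpression libraries had 30.8, 26.8 and 41.1 TPM of ALDH1L2. No gene could be given to either identifier, and whether they bear on ALDH1L2 was not tested. Whether the low ALDH1L2 sum there is a loss of expression was not tested.

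SHMT1 and MTHFD1 form the cytosolic side of the chain. SHMT1, the cytosolic serine hydroxymethyltransferase, moves a carbon between serine and folate. It had 60.2, 59.4, 58.9 and 59.4 CPM in the overexpression libraries, against 57.1, 57.7, 54.6 and 57.9 CPM in the control libraries. The groups did not overlap in CPM, but they did in TPM, at 41.8 to 46.0 TPM in overexpression and 40.0 to 46.2 TPM in control libraries. Its log2 fold change was 0.07 with an SE of 0.04 and a 95% interval of -0.01 to 0.14 (edgeR, adjusted p = 0.350). Its mitochondrial counterpart SHMT2 had a difference of the opposite sign, with 405 ± 5.55 CPM in overexpression and 450 ± 22.6 CPM in control libraries, a log2 fold change of -0.15 and an adjusted p of 0.121 by edgeR. Within each library the TPM of SHMT2 was 6.45 to 7.03 times that of SHMT1 in overexpression and 8.03 to 8.98 times in control libraries. The same held for MTHFD1L over SHMT1, at 1.30 to 1.43 times in overexpression and 1.46 to 1.903 times in control libraries. These ratios were formed after the values were seen and carry no test. The SHMT1 promoter stretch at chr17:18363551-18363675 on the minus strand is printed below. It has CCAAT boxes on both strands, in capitals, and GC boxes, and lacks the letters of the response element. Whether any of these letters bears on the levels or the ratios was not tested.
SHMT1: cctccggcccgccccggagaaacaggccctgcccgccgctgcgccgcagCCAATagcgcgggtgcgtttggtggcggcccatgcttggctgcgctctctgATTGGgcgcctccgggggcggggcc

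MTHFD1, the trifunctional cytosolic enzyme that recharges folate with formate, showed no stable direction. It had 127, 96.7, 97.2 and 101 CPM in the overexpression libraries, against 118, 109, 72.0 and 113 CPM in the control libraries. Overexpression replicate 1 was high and control replicate 3 low, and the remaining 6 libraries lay between 96.7 and 118 CPM. Its log2 fold change was 0.04 with a 95% interval of -0.38 to 0.45 (edgeR, adjusted p = 0.941). It turned to -0.07 without overexpression replicate 1, to -0.11 without control replicate 3 and to -0.03 on the log2(TPM + 1) scale.

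MTR, the B12-dependent methionine synthase that passes the folate carbon to homocysteine, had 98.3, 106, 191 and 166 CPM in the overexpression libraries, against 201, 115, 173 and 187 CPM in the control libraries. High and low libraries occurred in both groups. Its log2 fold change was -0.27 with an SE of 0.28 and a 95% interval of -0.95 to 0.42 (edgeR, adjusted p = 0.672). It was -0.13 without overexpression replicate 1 and -0.45 without overexpression replicate 3. Its reductase MTRR, which keeps MTR active, varied far less, with 40.5 ± 0.70 CPM in overexpression and 38.9 ± 0.32 CPM in control libraries. MTRR groups did not overlap in CPM, and its log2 fold change was 0.06 (edgeR, adjusted p = 0.388). MTRR is named outside the rule for named genes, with its value seen. In TPM its groups overlapped and the direction of MTRR turned, with means of 23.2 TPM in overexpression and 26.9 TPM in control libraries.

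**Figure D3:**
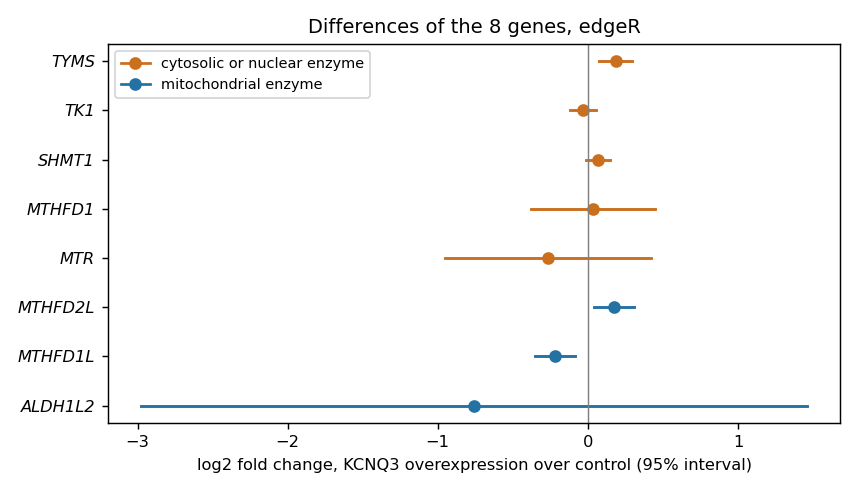
Log2 fold change of each of the 8 genes, KCNQ3 overexpression over control, with its 95% interval from edgeR; cytosolic or nuclear enzymes in orange, mitochondrial enzymes in blue. The intervals of TYMS and MTHFD2L lie above 0, that of MTHFD1L lies below 0, and those of ALDH1L2, MTR and MTHFD1 are wide.

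The levels, compared between genes in TPM and averaged over all 8 libraries, ran from TYMS at 191 TPM through TK1 at 96.3, MTHFD1L at 65.9, MTHFD1 at 53.9, SHMT1 at 43.6, ALDH1L2 at 31.9 and MTR at 24.9 to MTHFD2L at 17.7 TPM. TYMS and TK1 each stood above the next gene in every library with ranges that did not meet. From MTHFD1L downwards, the ranges of each gene and the next overlapped. Within libraries, SHMT1 stood above ALDH1L2 in all 8, MTR above MTHFD2L in 6 of 8, and each of the other pairs of neighbours kept its order in 7 of 8.

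Transcript estimates were less stable than gene sums. Of the 47129 transcripts tested, 0.0127% were called, and of the 9395 genes tested for a change in transcript usage, 0.383% were called (edgeR). None of the 8 genes had a called transcript, and the adjusted p for usage was 1.00 for each (edgeR's diffSpliceDGE). In MTHFD1L the coding transcript ENST00000611279 held 47.2% to 87.8% of its counts in overexpression and 0% to 93.1% in control libraries, with the value of 0 in control replicate 3. A count of 0 among the 3136 counts of the gene allows a share of up to 0.0957% at a limit of 3 counts, and of up to 0.118% by the 95% Clopper-Pearson interval. There the coding transcript ENST00000367321 held 89.96% (95% Clopper-Pearson interval 88.8% to 91.0%), where it held 3.25% to 20.2% in the other control libraries. Such intervals cover counting error only, and the counts are themselves estimates.

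For ALDH1L2, the coding transcript ENST00000258494 held 39.1% of counts in control replicate 1 (interval 37.9% to 40.4%), where ENST00000549335, a retained-intron transcript, held 60.7% (interval 59.4% to 62.0%). In the other control libraries the coding transcript held 90.8% to 94.2%. In the overexpression libraries it held 83.9%, 99.1%, 10.6% and 74.5%, where the 10.6% are 7 of the 66 counts of replicate 3. In SHMT1 the coding transcript ENST00000352886 ranged from 0% to 40.0% in overexpression and from 0% to 15.9% in control libraries. TYMS was simpler, with ENST00000323274 at 82.2% to 99.1% in overexpression and 76.2% to 98.9% in control libraries. TK1 counts sat on ENST00000301634 and, to a smaller extent, on ENST00000588734, which held 11.96 ± 4.25% in overexpression and 18.5 ± 2.72% in control libraries (SD, n = 4 each). Nearly all MTR counts lay on ENST00000366577, at 92.4% to 99.7% in overexpression and 83.8% to 99.8% in control libraries.

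MTHFD1 needs a limit of its own. Most of its counts lay on ENST00000557370, with 61.2% to 74.8% in overexpression and 24.3% to 76.9% in control libraries, and the low value belongs to control replicate 3, the library with the lowest MTHFD1 level. That transcript has 571 bases in GENCODE release 29, while its ratio of counts to TPM corresponds to 3082 bases. The authors' annotation therefore gives it another length, and the MTHFD1 sum here covers only the 15 of 16 release-29 transcripts found in the deposited table.

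**Figure D4:**
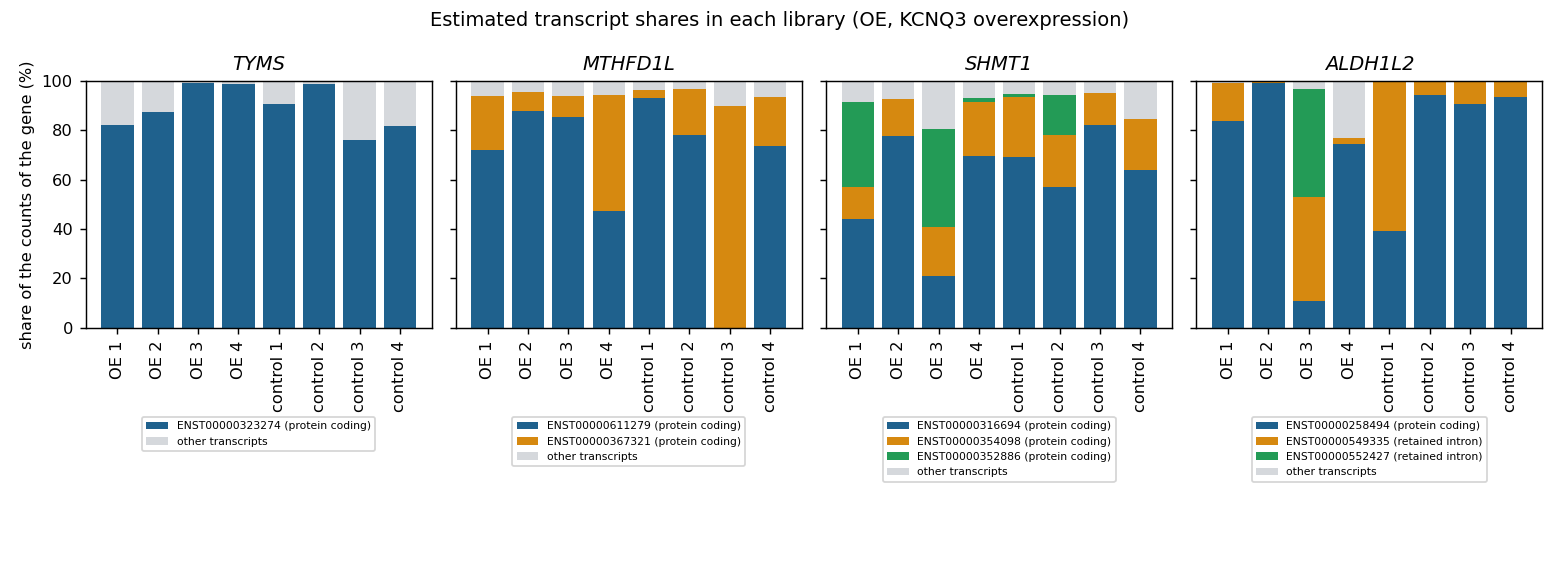
Estimated share of the counts of each gene on its main transcripts in every library, in percent, for TYMS, MTHFD1L, SHMT1 and ALDH1L2, with the 4 KCNQ3 overexpression libraries (OE) left of the 4 control libraries. Control replicate 3 has no count on the main MTHFD1L transcript, and control replicate 1 has 60.7% of ALDH1L2 counts on a retained-intron transcript.

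The other genes of folate and nucleotide metabolism were followed in 6 lists with 59 genes, of which 55 were tested. None passed the gene test (edgeR). At an unadjusted p under 0.05 there were 16 of 55, 9 higher and 7 lower, beside 19.4% of all tested genes. The groups did not overlap in 8 of 55 with overexpression higher and in 4 of 55 with overexpression lower, beside 5.84% and 5.77% of all tested genes. These counts, and every statement on overlap in the paragraphs on these lists, are in CPM. In TPM the groups of MTHFD2, SHMT2, GCSH, E2F1 and CDC6 did not overlap either, while those of SLC19A1, FPGS, PHGDH, PSAT1, NME1, MAT2A and CDT1 did. The median log2 fold change was 0.04, beside 0.0090 over all tested genes.

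For folate uptake and retention, all 5 tested genes of the transport list had a log2 fold change above 0, as did 10133 of all 19280 tested genes. The median of the list was 0.13, and 2 of its genes had an unadjusted p under 0.05 (edgeR), beside 19.4% of all tested genes. SLC19A1, the reduced folate carrier, had 56.2 ± 1.75 CPM in overexpression and 50.6 ± 2.68 CPM in control libraries, a log2 fold change of 0.15 and an adjusted p of 0.132 by edgeR. FPGS, which adds the glutamate tail that keeps folate in the cell, had a log2 fold change of 0.13 (edgeR, adjusted p = 0.161), and GGH, which removes it, 0.14 (edgeR, adjusted p = 0.359). The groups of SLC19A1 and FPGS did not overlap and those of GGH did. The folate receptors FOLR1 and FOLR2 were too low to be tested.

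In serine supply, PHGDH and PSAT1, the first enzymes of serine synthesis, had log2 fold changes of -0.21 (adjusted p = 0.0981) and -0.23 (adjusted p = 0.0658) by edgeR, both with groups that did not overlap. GCSH, the lipoyl carrier protein of the glycine cleavage system, had a difference of the opposite sign at 0.25 (edgeR, adjusted p = 0.0995), also without overlap. It is named outside the rule for named genes, with its value seen. Over the whole list of serine synthesis and glycine cleavage, 4 of 7 genes lay above 0, with a median log2 fold change of 0.02.

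On the side of use, the 6 genes of purine synthesis stayed near 0, with a median of 0.0090 and no member at an unadjusted p under 0.05 (edgeR). PAICS, the most abundant, had a log2 fold change of 0.07 (edgeR, adjusted p = 0.422), but its means in TPM were 227 in overexpression and 237 in control libraries. PFAS, an earlier step, had a log2 fold change of 0.07 (edgeR, adjusted p = 0.503). Of the 18 genes of pyrimidine and deoxynucleotide supply, 12 lay above 0, beside 10133 of all 19280 tested genes, and the median was 0.05. NME1, which phosphorylates nucleoside diphosphates, had 140 ± 7.12 CPM in overexpression and 120 ± 8.77 CPM in control libraries, a log2 fold change of 0.23 and an adjusted p of 0.0917 by edgeR. DHODH, the mitochondrial step of uridine synthesis, had a log2 fold change of 0.14 (edgeR, adjusted p = 0.194), and in TPM the direction of DHODH turned, with means of 10.1 TPM in overexpression and 13.3 TPM in control libraries.

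Around MTR, MAT2A, which turns methionine into S-adenosylmethionine, had 278 ± 16.2 CPM in overexpression and 242 ± 7.99 CPM in control libraries, with groups that did not overlap. Its log2 fold change was 0.20 (edgeR, adjusted p = 0.0887). AHCY, which clears the S-adenosylhomocysteine left by methylation, had a log2 fold change of -0.04 (edgeR, adjusted p = 0.721), and its relative AHCYL2 one of -0.15 (edgeR, adjusted p = 0.165). The betaine-dependent alternatives BHMT and BHMT2 were too low to be tested.

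**Figure D5:**
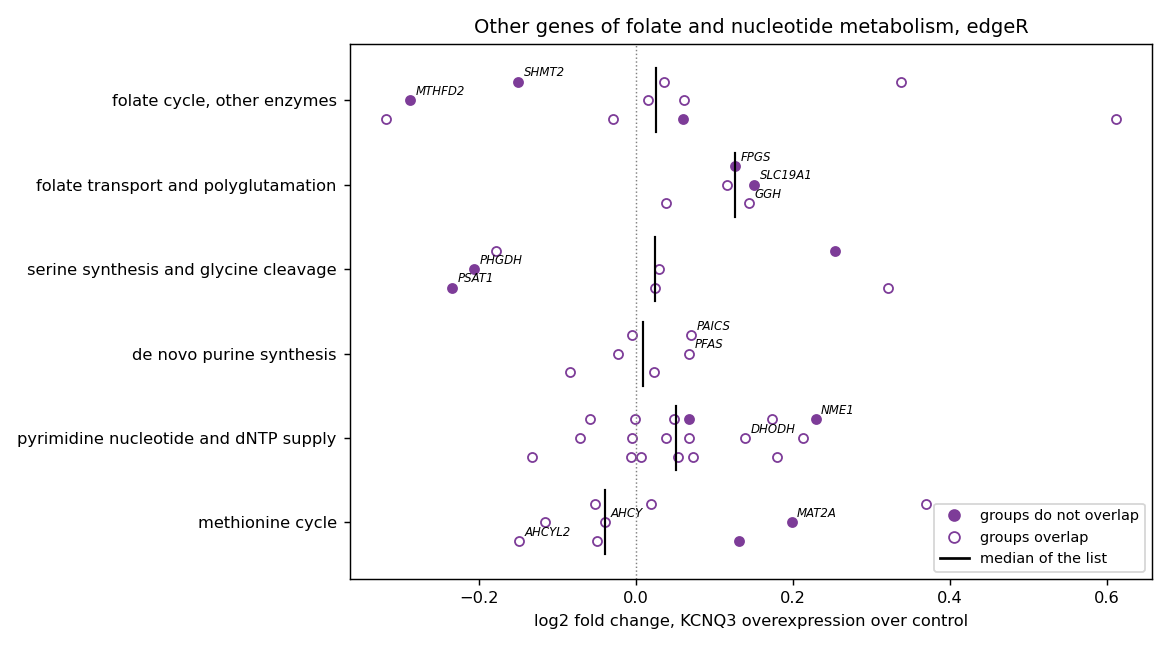
Log2 fold change, KCNQ3 overexpression over control (edgeR), of the 55 tested genes in 6 lists around the 8 genes; each point is a gene, filled where the 4 overexpression and 4 control libraries do not overlap, and black lines mark list medians. The transport list lies wholly above 0, and MTHFD2, PSAT1, PHGDH and SHMT2 form the filled points below 0.

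Regulators and S-phase genes were read beside the 8 genes, since E2F factors drive several of the thymidylate genes at the start of S phase. E2F1 had 65.3 ± 2.35 CPM in overexpression and 76.1 ± 4.08 CPM in control libraries, a log2 fold change of -0.22 and an adjusted p of 0.0643 by edgeR. None of 9 transcription factors and 12 S-phase genes was called (edgeR). Of the factors 7 lay below 0 and of the S-phase genes 9, as did 9147 of all 19280 tested genes. At an unadjusted p under 0.05 there were 5 in each list, all lower, beside 19.4% of all tested genes in either direction. The licensing factors CDC6 and CDT1 had log2 fold changes of -0.17 (adjusted p = 0.0628) and -0.31 (adjusted p = 0.0699) by edgeR, both with groups that did not overlap. PCNA, CCNE1 and CCNE2 of the S-phase list lay above 0, at log2 fold changes of 0.07, 0.05 and 0.11. Their 95% intervals spanned 0, at -0.03 to 0.16, -0.06 to 0.17 and -0.26 to 0.49 (edgeR). The direction of these genes is therefore not settled. CCNE2 had 30.3 CPM in overexpression replicate 3. In the other overexpression libraries it had 18.2 to 19.98 CPM, against 18.3 to 21.5 CPM in the control libraries.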

How the data were processed

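RNA-seq of 8 HEK293T libraries was analysed. Per the submitters' processing notes the genome build was GRCh38.p13 and the tools named are StringTie 2.1.0, HISAT2 2.1.0, SAMtools 1.9, cutadapt 2.8 and FastQC 0.11.5. The authors deposited a table of estimated counts per transcript, all whole numbers, and a table of TPM per transcript. Neither the strandedness of counting nor the annotation release is stated in the labels. Counts and TPM were summed per gene by transcript identifier with GENCODE release 29: 205804 of 227751 identifiers matched, and the 21947 others, with 1.12% to 1.25% of counts, were left out of gene sums.

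Genes were tested with edgeR 4.0.16 in R 4.3.3 (TMM, filterByExpr with a minimum count of 10 and a minimum total of 15, robust quasi-likelihood F-test, Benjamini-Hochberg over all 19280 genes, threshold 0.05). The log2 fold change is overexpression over control, fitted over both groups without covariates. Transcripts were tested the same way, and transcript usage with diffSpliceDGE. Alternatives were DESeq2 1.42.0, limma 3.58.1 on log2(TPM + 0.1) and log2(TPM + 1), other scalings and filters, a replicate block and leaving out each library. The procedure was tested on simulated data. Replicates of a group differed by more than sampling noise, with chi-square per degree of freedom of 9.72 to 18.6 over 12 pairs.

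The 8 genes, the pathway, marker and regulator lists, the motifs and the ratios were chosen with earlier results of these data known. Named genes are the 8, KCNQ3, their annotated neighbours, and from each pathway list the 2 of lowest unadjusted p and the most abundant. Transcripts are named where they hold at least 10% of the counts of their gene. Further names come from the regulator and marker lists. GCSH, MTRR, MMACHC and the untested FOLR1, FOLR2, BHMT and BHMT2 were named outside this rule. Intervals of log2 fold changes are for the difference between groups, set against the spread between libraries at 24020097 to 30734915 counts each.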

Additional observations from a re-analysis of the deposited data

Results flagged for a closer look

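In groups of 4, a library was singled out where its gap to the next was a larger part of the range of the group than Dixon's 95% critical value allows, which chance does in about 1 group of 20. Of 70 groups checked for 35 genes, 5 passed it. MTHFD1 stood highest in overexpression replicate 1 at 127 CPM, and the other 3 overexpression libraries lay at 96.7 to 101 CPM. ALDH1L2 stood lowest in overexpression replicate 3 at 2.46 CPM. AHCYL2 stood highest in overexpression replicate 3 at 27.6 CPM, within a group that spans little more than 1 CPM. MMACHC stood lowest in control replicate 3 at 25.2 CPM, and CDC6 stood highest in the same library at 131 CPM.

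Unmatched identifiers, which enter no gene sum, gave a signal in overexpression replicate 3 that the other 7 libraries lack. That library was searched because its ALDH1L2 was low, and the others were not searched for signals of their own. ENST00000652515 had 3787 counts there and ENST00000666607 had 1028 counts, beside at most 6 and 0 counts in any other library.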

How the results depend on the processing

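Over 16 alternatives per gene, direction was kept for TYMS, TK1, MTHFD1L, MTHFD2L, SHMT1, ALDH1L2 and MTR. The log2 fold change of MTHFD1 turned to -0.0343 and -0.0341 on the log2(TPM + 0.1) and log2(TPM + 1) scales, to -0.07 without overexpression replicate 1 and to -0.11 without control replicate 3, the lowest of a range up to 0.10 with 1 library left out, each with an adjusted p of at least 0.644 (edgeR or limma). DESeq2 called 2 of the 8, TYMS at 0.18 and MTHFD1L at -0.23, and leaving out control replicate 4 called 1, MTHFD1L at -0.27; the other alternatives called 0. With 1 library left out, MTHFD1L ranged from -0.27 to -0.17. Genes called over the whole table numbered 58 (21 higher, 37 lower), and 35 without a scaling factor (9 higher, 26 lower), 727 by DESeq2, 7 with limma on either TPM scale, and 8 to 378 with 1 library left out. Transcripts called numbered 6, then 0 without the filter and 0 to 9 with 1 library left out. Same-numbered libraries did not deviate together over all tested genes (correlations -0.05 to 0.01). Such correlations cannot show whether the numbers pair the libraries. With a replicate block 86 genes, 0 of the 8, 0 transcripts and 21 genes for usage (36 without it) were called. The cause of these differences was not tested. No scaling moved the median of all genes by 0.1 on the log2 scale. ALDH1L2, MTHFD1 and MTR differed between replicates by more than depth, since their spread remained in CPM. The cause of that spread was not tested. MTHFD1 may have transcripts that release 29 does not list.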
